A study of Homo sapiens with 4 samples.

Results

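The regions described here are the H3K27ac peaks of the colon cancer line COLO-205 whose summit lies in a 2-Mb window on the short arm of chromosome 6, at chr6:41000001-43000000 of hg19. They number 1146 of the 85576 peaks in the COLO-205 list, and of 251138 peaks in the lists of all 4 lines. The window was chosen by the density of COLO-205 peaks in it, so the number of peaks, the bases they cover and the other peak values of COLO-205 in it are given as a description, with no test. The study profiled the acetylation of histone H3 at lysine 27 (H3K27ac) by chromatin immunoprecipitation and sequencing (ChIP-seq) to map active regulatory regions in cancer cells. Beside COLO-205 it covered DU-145, from prostate cancer, and a pair of lines from ovarian cancer, OVCAR-3 and SKOV-3. The labels name no treatment. COLO-205 and OVCAR-3 were grown in RPMI, DU-145 in Eagle minimal essential medium and SKOV-3 in McCoy’s medium, all with FBS. Each line has 1 library, made with the same antibody, so no replicate error can be given for any value and intervals cover counting error only.

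H3K27ac is placed by the acetyltransferases p300 and CBP and marks nucleosomes next to active promoters and enhancers. In most cells it forms short, separate peaks, with broader stretches over strong enhancers. By the gene bounds of the annotation, 46 protein-coding genes begin in the window, of which 2 are read-through genes with no start of their own in the protein-coding transcripts and count as unmarked in every line. Among them are CCND3, which encodes the cyclin D3 that drives entry into S phase, TFEB, a transcription factor for lysosome genes, the forkhead factor gene FOXP4 and NFYA, a subunit of the CCAAT-binding factor NF-Y. It also holds the TREM receptor genes of myeloid cells and the guanylate cyclase activator genes GUCA1A and GUCA1B of photoreceptors.

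Depth ranged from 22400000 ChIP tags in SKOV-3 to 36000000 in DU-145, with 29800000 in COLO-205, as computed from the lowest local background in each list. The list of SKOV-3 is the shortest, with 14001 peaks, and those of DU-145 and OVCAR-3 have 75468 and 76093. Of 6 genes of colon epithelium, 4 had a COLO-205 summit within 1 kb of a start, with none at CDX1 and CDH17, while DU-145 and SKOV-3 had none at any of the 6 and OVCAR-3 had one at LGALS4. Of 3 genes of ovarian carcinoma, 3 were marked in OVCAR-3, 1 in SKOV-3 (PAX8) and 2 each in COLO-205 and DU-145. PAX8 had a peak at a start in all 4 lines, so the 1 marker found in SKOV-3 does not set it apart. Over all coding genes 48.1% are marked in COLO-205, against 58.1% in DU-145, 58.9% for OVCAR-3 and 30.8% for SKOV-3, and lists of 6 and 3 genes are too short to be read against these shares as a check of tissue.

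The sequences that follow are the reference bases at regions on which the results turn. Each holds 201 bases, with a peak summit or a gene start at its centre, and capitals mark the letters of the motifs searched, on either strand. The first is the summit with the highest −log10 q of the whole COLO-205 list, in an intron of BICRAL at chr6:42750842-42751042 on the plus strand. The second is the summit of the strongest peak that overlaps no peak of another line and lies over 1 kb from a coding start, in an intron of TRERF1 at chr6:42246878-42247078 on the plus strand. The last ones are centred on the canonical starts of CCND3, at chr6:41909446-41909646, and TFEB, at chr6:41703246-41703446, both read on the minus strand.
BICRAL intron summit: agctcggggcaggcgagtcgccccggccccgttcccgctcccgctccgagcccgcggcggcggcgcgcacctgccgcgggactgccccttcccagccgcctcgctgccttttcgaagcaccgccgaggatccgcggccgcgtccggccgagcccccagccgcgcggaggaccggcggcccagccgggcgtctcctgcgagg
TRERF1 intron summit: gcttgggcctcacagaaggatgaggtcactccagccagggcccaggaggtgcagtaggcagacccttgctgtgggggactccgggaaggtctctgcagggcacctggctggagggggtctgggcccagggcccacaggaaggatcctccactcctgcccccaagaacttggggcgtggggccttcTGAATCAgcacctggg
CCND3 start: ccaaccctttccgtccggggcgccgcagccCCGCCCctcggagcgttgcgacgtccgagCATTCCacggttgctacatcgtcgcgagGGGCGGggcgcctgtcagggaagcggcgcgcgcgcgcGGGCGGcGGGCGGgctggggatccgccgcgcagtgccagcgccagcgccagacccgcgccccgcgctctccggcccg
TFEB start: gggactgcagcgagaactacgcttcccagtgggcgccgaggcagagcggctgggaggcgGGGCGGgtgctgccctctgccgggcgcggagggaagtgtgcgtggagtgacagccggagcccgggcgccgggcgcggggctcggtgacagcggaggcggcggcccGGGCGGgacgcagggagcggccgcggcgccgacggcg
The stretch at BICRAL holds none of the 12 motifs, and that of TRERF1 holds 1, TGANTCA of AP-1. The starts of CCND3 and TFEB both hold GGGCGG of the Sp and KLF factors, and that of CCND3 also holds CATTCC of TEAD.

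The window held 1146 peaks in COLO-205. DU-145 had 147 there, OVCAR-3 had 60 and SKOV-3 had 27. COLO-205 thus had 7.80 times as many as DU-145, 19.1 times as many as OVCAR-3 and 42.4 times as many as SKOV-3. With a −log10 q of 10 or more COLO-205 kept 1030 of its peaks in the window and the ratios were 17.2, 29.4 and 73.6. With the 14001 strongest peaks of each list it had 949 and the ratios were 30.6, 55.8 and 35.1. In COLO-205 the peaks covered 808428 bp, which is 40.4% of the window. The peaks of DU-145 covered 3.93% of it, those of OVCAR-3 1.82% and those of SKOV-3 0.490%. The median distance between neighbouring COLO-205 summits was 1320 bp, with quartiles of 879 bp and 1990 bp, and 5 of the 1145 distances were over 10 kb. Measured from the end of a peak to the start of the next, 370 neighbours lay less than 350 bp apart.

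Each 250-kb part of the window was dense in COLO-205, with the fewest peaks at both ends. In order along the chromosome, COLO-205 had 99, 146, 160, 169, 174, 157, 159 and 82 peaks, while DU-145 had between 6 and 33, OVCAR-3 between 1 and 15 and SKOV-3 between 0 and 6. The last part had the fewest COLO-205 peaks and the most DU-145 peaks. The last summit of the dense stretch lies at 42874715, and the next COLO-205 summit lies at 42946804, 72089 bp farther on. This is the longest distance between summits in the window. Past 42900000, 2 COLO-205 peaks lie in the rest of the window, where DU-145 has 15, OVCAR-3 has 5 and SKOV-3 has 2.

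The dense stretch reached beyond the window on its left side. Counted in adjacent 100-kb bins with at least 5 COLO-205 peaks, a minimum set after the counts were seen, it ran for 5.1 Mb from 37800001 to 42900000 and held 2346 peaks, between 9 and 75 per bin with a median of 44. It held 41.2% of the 5692 COLO-205 peaks of chromosome 6 and 2.74% of the whole list. The first summit lies at 37820630, 32528 bp after its left neighbour. Both ends are abrupt. The 3.2 Mb of the stretch left of the window held 376 peaks per Mb, against 602 per Mb in its 1.9 Mb inside the window. The 1.8 Mb of flank before it held 6.67 per Mb and the 5 Mb to the right of the window held 3.8 per Mb.

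The flanking 5 Mb on each side held 1233 COLO-205 peaks, of which 1214 were on the left and 19 on the right. Per Mb, the window had 4.65 times as many peaks as the flanks, 2.36 times as many as the left flank and 151 times as many as the right flank. The other lines were also denser in the window than in the flanks, by 1.73 times in DU-145, 1.82 times in OVCAR-3 and 2.29 times in SKOV-3, but did not share the contrast between the flanks. In the right flank DU-145 had 275 peaks, OVCAR-3 had 88 and SKOV-3 had 36, each more than the 151, 77 and 23 in the left flank. The DU-145 peaks of the right flank reached 40 in a 100-kb bin, where COLO-205 had at most 4 in any bin of that flank. In the part of the stretch left of the window, COLO-205 had 1202 peaks where DU-145 had 47, OVCAR-3 had 22 and SKOV-3 had 5. At the edges set by the rule, the first peak inside the window has its summit at 41000855 with a fold enrichment of 8.28, and the last one outside has it at 40998179 with a fold enrichment of 11.7. The last one inside has its summit at 42990315 with a fold enrichment of 4.83, and the next outside has it at 43076385 with a fold enrichment of 3.78. The left edge of the window therefore cuts through the dense stretch and the right edge lies past its end.

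**Figure D1:**
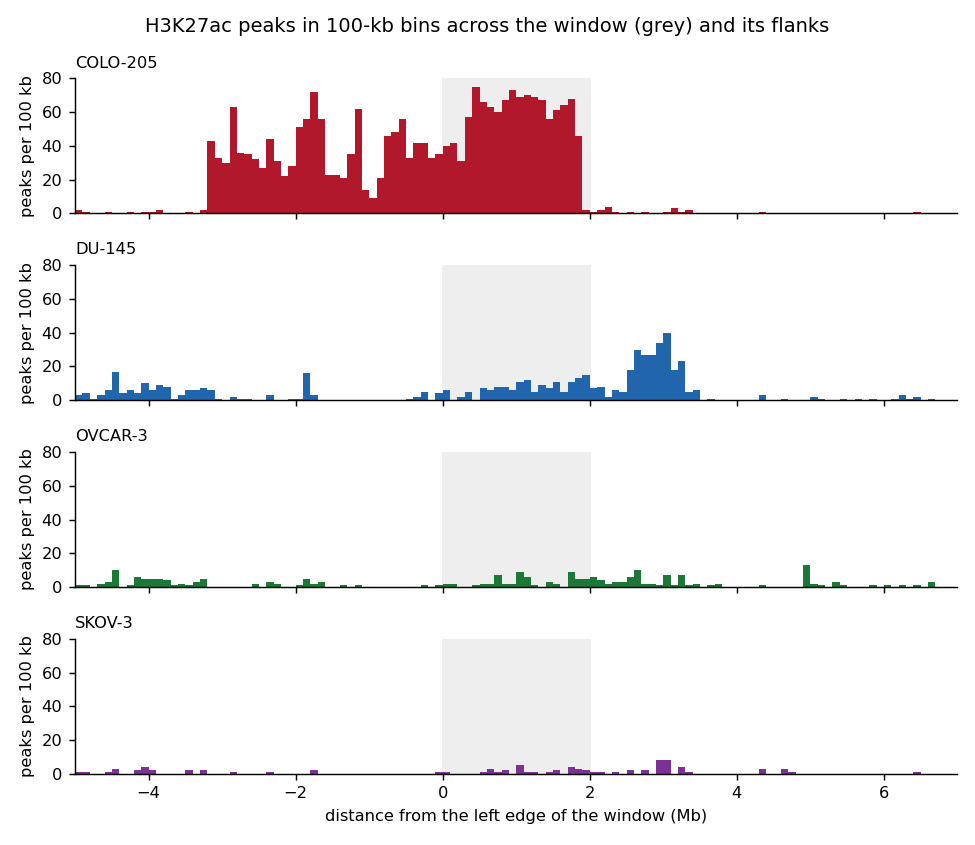
Number of H3K27ac peaks (vertical axes) in 100-kb bins against the distance from the left edge of the window in Mb, with 1 panel per line and the window in grey. COLO-205 has between 9 and 75 peaks in each bin of a 5.1-Mb run that ends inside the window, and the other lines have fewer peaks in the same bins.

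The COLO-205 peaks of the window were strong as well as many. Their fold enrichment over the local background, as the peak caller gave it, had a median of 9.67, against 8.74 in the flanks and 4.73 over the whole list. The medians were 8.77 in the left flank and 4.06 in the right flank. The −log10 q had a median of 28.9 in the window and 8.35 in the whole list, and the width of a peak 502 bp and 282 bp. Of the 856 peaks in the top 1% of the COLO-205 list by −log10 q, 204 were in the window, which is 23.8% of them, where the window holds 1.34% of the list. In the other lines the median fold enrichment in the window was below that of the whole list, at 4.31 in DU-145, 4.44 for OVCAR-3 and 4.93 for SKOV-3, against 4.50, 5.37 and 5.35 over their whole lists.

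The fold enrichment and p-value of a peak allow the number of tags at its summit (the pileup) and the local background to be solved. The median pileup was 43 tags in the window, 37 in the left flank, 38 in the right flank and 24 over the whole COLO-205 list. The median local background was 3.43 tags in the window, 3.13 in the left flank, 7.74 in the right flank and 4.29 over the whole list. Against the whole list, the window had both a higher pileup and a lower background. The right flank, with a similar pileup, had the highest background. At summits within 1 kb of a coding start the background had a median of 5.73 in the window and 8.52 in the whole list, and at those farther away 3.35 and 3.77. The background was at its lowest possible value, within 1%, at 5.50% of the peaks of the window and 10.3% of all peaks.

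**Figure D2:**
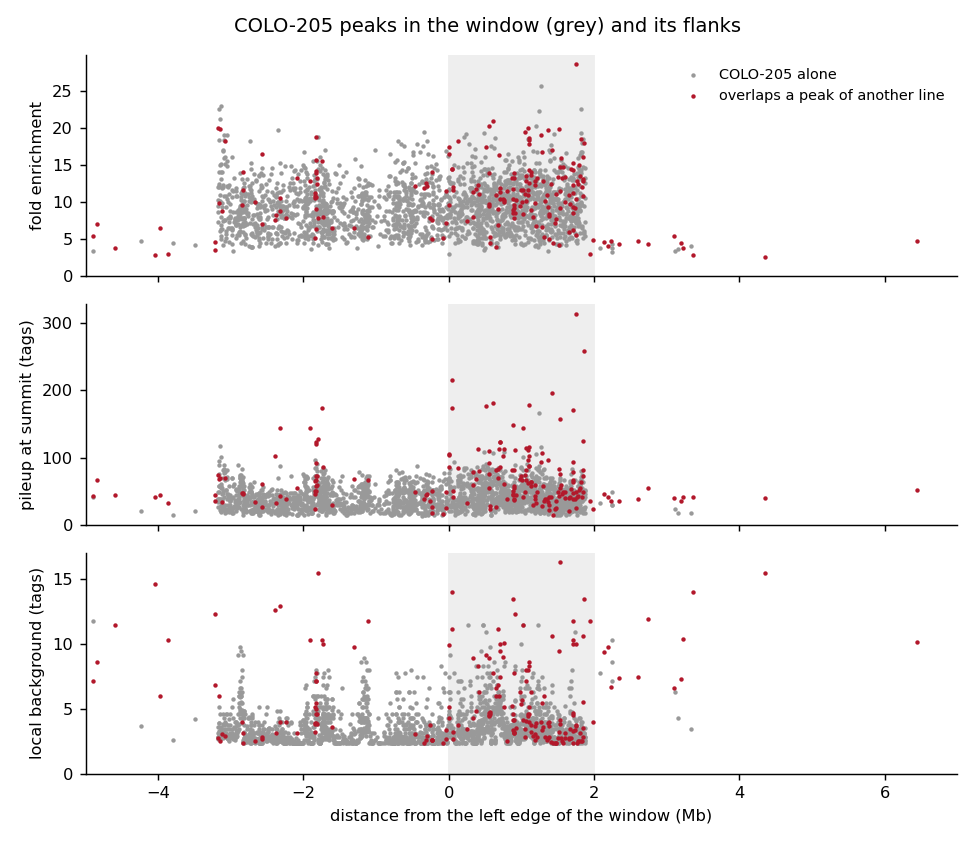
Fold enrichment, pileup in tags and local background in tags (vertical axes) of each COLO-205 peak against the distance of its summit from the left edge of the window in Mb, with the window in grey. Red points are peaks that overlap a peak of another line and grey points are the rest. Fold enrichment is high along the whole dense run, while the few peaks of the right flank have a median fold enrichment of 4.06 and a median background of 7.74 tags.

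Most COLO-205 peaks of the window had no counterpart in the other lines. At least 1 bp of overlap with a peak of another line was found for 129 of 1146, or 11.3% (exact Clopper-Pearson 95% interval 9.48% to 13.2%), where 25.2% of all COLO-205 peaks and 5.60% of those in the flanks have one. Most flank peaks, 1202 of 1233, lie in the dense stretch left of the window, and in the right flank 63.2% of 19 peaks had an overlap. Of the 129, 94 overlapped 1 other line, 21 overlapped 2 and 14 overlapped all 3. The share was 5.05% among peaks with a −log10 q of 10 or more, where it is 28.1% over the whole list. It was 4.00% against 34.5% with the 14001 strongest peaks of each list, 14.4% against 24.9% with close peaks merged, and 6.20% against 23.2% when 50% of the peak had to overlap. Under each of these settings the window stayed below the whole list. DU-145 was the most frequent partner, with 113 peaks or 9.86%, followed by OVCAR-3 with 3.84% and SKOV-3 with 1.83%. Over the whole list these shares are 17.4%, 19.3% and 8.09%, with OVCAR-3 the most frequent. The shared peaks were wider and stronger than the others, with a median width of 781 bp against 476 bp and a median fold enrichment of 11.4 against 9.44. Over the whole list the median fold enrichment was 4.45 in shared peaks and 4.79 in the others, and in the flanks 7.89 and 8.76. The 14 peaks found in all 4 lines had a median width of 1680 bp and a median pileup of 154 tags. A wider peak more easily reaches 1 bp of overlap, so the widths are not independent of the sharing.

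Seen from the other lines, most peaks of the window had a COLO-205 peak on them. This held for 121 of 147 DU-145 peaks (82.3%, where 18.0% of all DU-145 peaks overlap a COLO-205 peak), for 54 of 60 OVCAR-3 peaks (90.0%, where 20.0% of all do) and for 24 of 27 SKOV-3 peaks (88.9%, where 51.0% of all do). In the right flank it held for 11 of 275 DU-145 peaks (4.00%), 11 of 88 OVCAR-3 peaks (12.5%) and 10 of 36 SKOV-3 peaks (27.8%). COLO-205 peaks covered 40.4% of the window and 0.162% of the right flank, so a far larger part of the window than of the right flank can give an overlap.

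At the shared peaks, the pileup can be set against that of the other line, each per 1000000 tags of its library. The median pileup per 1000000 tags was 1.91 in COLO-205 and 0.860 in DU-145 at the 113 peaks shared with DU-145 in the window. The log2 ratio of COLO-205 to DU-145 had a median of 1.17 and quartiles of 0.66 and 1.57, and COLO-205 was the higher at 106 of the 113. Against OVCAR-3 the median log2 ratio was 1.25, with COLO-205 higher at 41 of 44, and against SKOV-3 it was 1.64, with COLO-205 higher at 21 of 21. Over all shared peaks of the genome the medians were -0.23, -0.52 and -0.12. In these terms COLO-205 had more tags than each other line at the median shared peak of the window. At the median shared peak of the genome it had fewer. Peaks of the window that overlap no peak of another line were not compared.

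The flanks differed by whether they were dense. In the dense stretch left of the window the median log2 ratio was 1.41 against DU-145 over 41 peaks, 0.96 against OVCAR-3 over 18 and 0.90 against SKOV-3 over 4. In the flanks outside the stretch it was -0.90 over 19 peaks, -1.17 over 19 and -0.33 over 15, with COLO-205 the higher at 0, 2 and 4 of them. The difference between the median in the window and that in the flanks as a whole was 0.26 against DU-145, 1.32 against OVCAR-3 and 1.82 against SKOV-3 on the log2 scale. With the left flank alone it was -0.13 against DU-145, and 41 of the 49 peaks shared with DU-145 in that flank lie in the dense stretch. DNA copy number was not analysed here, so more copies of the DNA and more acetylation per copy cannot be told apart.

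**Figure D3:**
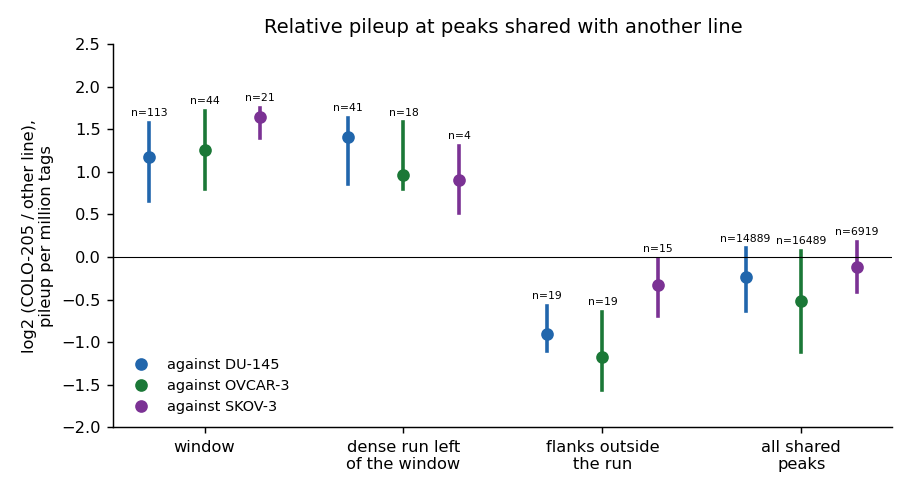
Log2 ratio of the COLO-205 pileup to that of another line (vertical axis), with each pileup per 1000000 tags of its library, at peaks that overlap between them, with the number of peaks above each bar. Points are medians and bars run from the lower to the upper quartile. The medians lie between 1.17 and 1.64 in the window and below 0 in the flanks outside the dense run.

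Among the protein-coding genes of the window, COLO-205 marked nearly all starts up to the last summit of the dense stretch. That summit was read from the same COLO-205 peaks, so the split of genes at it is a description. The window was chosen for its density, and 82.3% of all positions from its left edge to the last summit of the stretch lie within 1 kb of a COLO-205 summit, against 11.1% for DU-145, 4.46% for OVCAR-3 and 2.29% for SKOV-3. A summit within 1 kb of a start was found at 38 of the 46 genes in COLO-205, against 28 in DU-145, 26 for OVCAR-3 and 19 for SKOV-3. Over all 19807 coding genes the shares are 48.1%, 58.1%, 58.9% and 30.8% in the same order. Of the 38 genes that start before the last summit of the stretch, 36 were marked in COLO-205, and the others are read-through genes without a start of their own in the protein-coding transcripts. The other lines marked 22 of the 38 in DU-145, 20 for OVCAR-3 and 16 for SKOV-3, and 13 were marked in COLO-205 alone, where 5.92% of all coding genes are. Of the 8 genes that start after the last summit, 2 were marked in COLO-205, against 6 in DU-145, 6 for OVCAR-3 and 3 for SKOV-3. Among these 8, PTCRA and CNPY3 start before 42900000, the end of the stretch when counted in bins, and were unmarked in COLO-205. Genes with a shared or close start, such as NFYA and OARD1, MED20 and BYSL, or CCND3 and TAF8, share peaks and are not independent, and the same holds for GUCA1ANB and a read-through gene that begins at its start.

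All 9 listed genes for transcription factors and their cofactors were marked in COLO-205 and in DU-145, 8 for OVCAR-3 and 7 for SKOV-3. The peak given for a gene is the strongest within 1 kb of any of its coding starts, so it need not be the same peak in each line. At FOXP4 the strongest peak at the start had a fold enrichment of 17.4 in COLO-205. It was 6.32 in DU-145, 10.6 for OVCAR-3 and 8.37 for SKOV-3. TFEB has several starts, and at one of them COLO-205 had 16.2 and SKOV-3 had 5.75. At another, DU-145 had 7.27 and OVCAR-3 had 4.22, inside a COLO-205 peak from 41700461 to 41703424 with 11.9. MDFI, an inhibitor of myogenic basic helix-loop-helix factors, had 20.8 in COLO-205, 7.35 in DU-145 and 3.33 in OVCAR-3, and no peak in SKOV-3. TRERF1, a zinc finger factor that regulates steroid enzyme genes, had 17.0 in COLO-205 against 4.59 in DU-145, 8.13 for OVCAR-3 and 4.82 for SKOV-3. COLO-205 had the highest fold enrichment of the 4 lines at each of these starts. BICRAL encodes a subunit of a SWI/SNF chromatin remodelling complex. Its strongest COLO-205 summit lies 1152 bp from its first start, outside this limit, and that peak is among the strongest described further on. BICRAL counts as marked in COLO-205 by a weaker peak at another start, with 9.35, against 9.77 in DU-145 and 9.23 in SKOV-3. It is the listed gene unmarked in OVCAR-3, where a peak with 18.3 overlaps that strongest COLO-205 peak.

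Outside the starts, the bodies of these genes were filled with COLO-205 peaks. TRERF1 held 153 COLO-205 summits over 227 kb, with 18 in DU-145, 2 for OVCAR-3 and 1 for SKOV-3. FOXP4 held 31 COLO-205 summits, 6 in DU-145 and 1 in each ovarian line, and COLO-205 peaks covered 69.0% of its length. TFEB held 35 COLO-205 summits, 5 in DU-145 and 3 in each ovarian line, with 69.8% of its length covered. The share of the gene under COLO-205 peaks was taken over the 38 genes of the window that start before the last summit of the stretch. It had a median of 53.7% and ran from 18.4% at NFYA to 93.4% at TSPO2.

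Of the 6 listed genes of the cell cycle and signalling with a start in the window, 4 were marked in COLO-205, against 6 in DU-145, 6 for OVCAR-3 and 4 for SKOV-3. CCND3 held 82 COLO-205 summits over 115 kb, with 8 in DU-145, 2 for OVCAR-3 and 0 for SKOV-3. Its strongest peak at a start had a fold enrichment of 11.6 in COLO-205, against 5.12 in DU-145, 7.32 for OVCAR-3 and 4.47 for SKOV-3, and it is the peak shared with TAF8, a subunit of the general factor TFIID. The canonical start of CCND3, at 41909546, lay under a peak in COLO-205 and in no other line. This COLO-205 peak, with a fold enrichment of 8.41, begins at 41908005, ends at 41909840 and overlaps peaks of 2 other lines elsewhere along its length. The genes of this list without a COLO-205 peak at the start are PPP2R5D, a regulatory subunit of the phosphatase PP2A, and KLHDC3, a substrate receptor of a ubiquitin ligase, both past the end of the stretch. At PPP2R5D the fold enrichment was 4.85 in DU-145, 6.67 for OVCAR-3 and 4.97 for SKOV-3.

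Genes known for other tissues were marked too, where most positions lie within 1 kb of a COLO-205 summit. Of 8 listed genes of myeloid and lymphoid cells, 6 had a COLO-205 peak at a start, 2 did in DU-145, 2 for OVCAR-3 and 1 for SKOV-3. The marked ones are the immune receptor genes TREML1, TREM2, TREML2, TREML4, TREM1 and NCR2, with fold enrichments between 8.82 at TREML2 and 18.2 at TREML1. Over the 202 kb they span, from 41117075 to 41318627, COLO-205 had 84 peaks with a median fold enrichment of 9.54, where DU-145 had 2, OVCAR-3 had 2 and SKOV-3 had 0. PTCRA, the pre-T-cell receptor chain gene, and CNPY3, a chaperone of Toll-like receptors, start after the last summit of the stretch, at 42874715. They start before its end as counted in bins, at 42900000, and had no COLO-205 peak. CNPY3 was marked in all 3 other lines, with a fold enrichment of 5.61 for DU-145, 5.44 for OVCAR-3 and 3.36 for SKOV-3.

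All 3 retina genes were marked in COLO-205 and none was in the other lines. The fold enrichments were 10.7 at GUCA1A, 6.75 at GUCA1B and 9.16 at PRPH2, which encodes a protein of the photoreceptor outer segment discs. PRPH2 held 18 COLO-205 summits, 2 in DU-145 and 0 in OVCAR-3 and SKOV-3. Of the 3 listed genes of the digestive tract and liver, PGC, the gastric pepsinogen C gene, had a fold enrichment of 10.4 at its start in COLO-205 and no start peak in the other lines. UNC5CL had 17.4 in COLO-205 and 3.34 in DU-145, and GNMT, a glycine methyltransferase gene of liver, past the end of the stretch, had no start peak in any of the 4 lines.

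Genes needed in every cell lie on both sides of the end. Of the 9 listed, 8 were marked in COLO-205, against 8 in DU-145, 8 for OVCAR-3 and 6 for SKOV-3. At TBCC, a tubulin folding cofactor gene inside the stretch, the pileup of the strongest peak per 1000000 tags was 5.74 in COLO-205, 3.10 in OVCAR-3 and 1.79 in SKOV-3, while the strongest peak of DU-145 is a different one beside it. At RPL7L1, the last of them inside, it was 4.16 in COLO-205, against 1.91 in DU-145, 1.87 for OVCAR-3 and 1.16 for SKOV-3. At RRP36, a ribosomal RNA processing gene past the end, it was 0.772 in COLO-205, 2.08 in DU-145 and 3.57 in OVCAR-3, and the strongest peak of SKOV-3 does not overlap that of COLO-205. At PEX6, a peroxisome biogenesis gene past the end, it was 1.21 in COLO-205, 2.0 in DU-145 and 2.31 in OVCAR-3, with no peak in SKOV-3. COLO-205 was thus the highest of 4 lines at RPL7L1 and of the 3 compared at TBCC, and below DU-145 and OVCAR-3 at PEX6 and RRP36. MRPS10, a mitochondrial ribosome gene inside the stretch, was marked in COLO-205 alone.

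**Figure D4:**
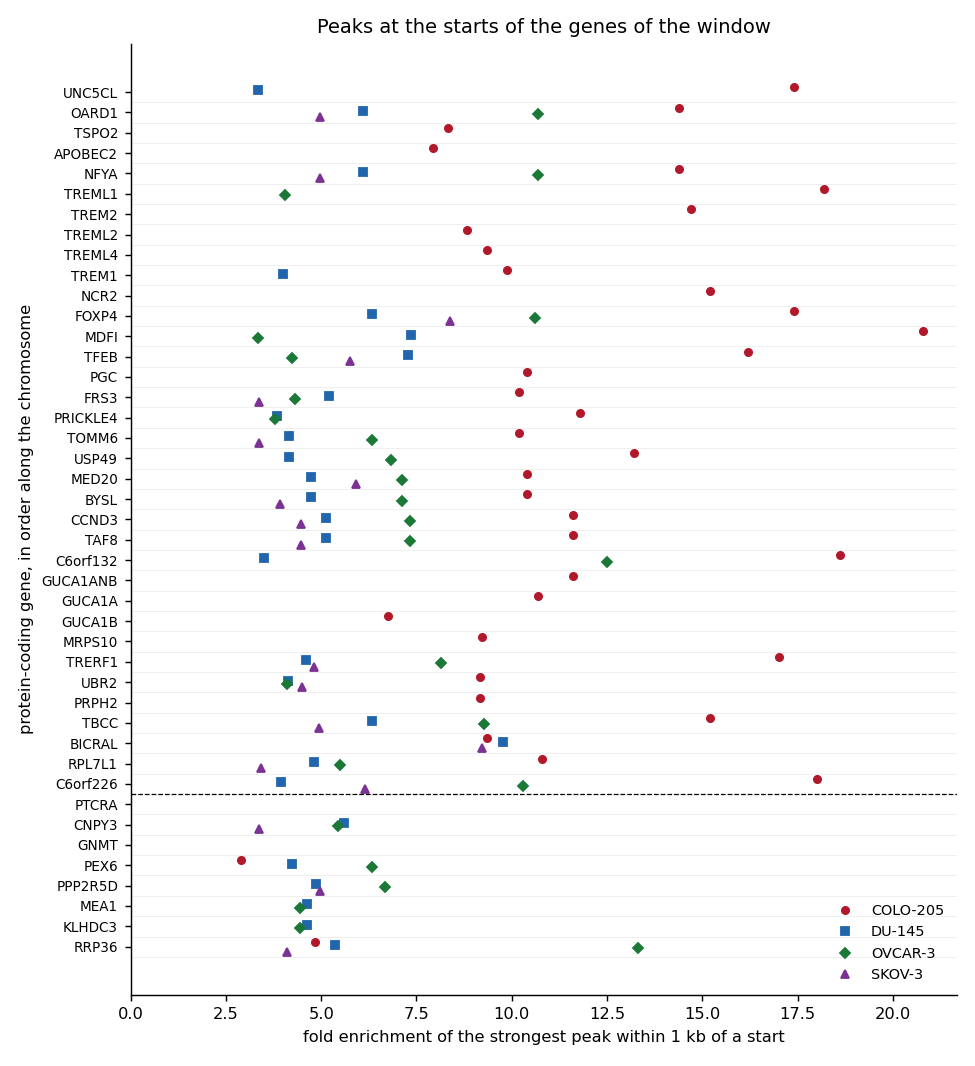
Fold enrichment of the strongest peak within 1 kb of a start (horizontal axis) for the named protein-coding genes of the window, in order along the chromosome, with 1 symbol per line and none where a line has no peak. The dashed line is the last summit of the dense COLO-205 run. Above it COLO-205 has a peak at each gene shown, and below it at PEX6 and RRP36 alone. At BICRAL, TFEB, FRS3, PRICKLE4 and MED20 the strongest peaks of the lines lie at different starts. At TREM1, TBCC and RRP36 the strongest peak of at least 1 other line does not overlap that of COLO-205.

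Most peaks of the window lay away from gene starts. Of the 1146 COLO-205 peaks, 61 had their summit within 1 kb of a protein-coding start, or 5.32% (exact Clopper-Pearson 95% interval 4.10% to 6.79%), where 15.2% of all COLO-205 peaks and 3.33% of those in the flanks do. In the window 29.3% of the DU-145 peaks did, 53.3% of those of OVCAR-3 and 74.1% of those of SKOV-3, where 22.6%, 22.4% and 51.0% of their whole lists do. The share was thus below that of the whole list in COLO-205 and above it in the other lines. In COLO-205 596 peaks, or 52.0%, lay in introns of coding genes, 100 in their exons, 90 in genes of long non-coding RNAs and 299, or 26.1%, in none of these. Peaks that were both unshared and over 1 kb from a start made up 984 of the 1146, or 85.9%, against 71.0% of the whole list and 93.0% of the flanks. On these measures the window thus lay between the pooled flanks and the whole list. Of the 1233 flank peaks, 1202 lie in the dense stretch left of the window. In the right flank, 57.9% of the 19 peaks lay within 1 kb of a start.

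The 5 peaks of the window with the highest −log10 q are all at or near gene starts and shared. That in BICRAL, from 42749412 to 42751721, has the highest −log10 q of the whole COLO-205 list at 333, with a pileup of 314 tags. Its fold enrichment was 28.6 in COLO-205, against 9.77 in DU-145, 18.3 for OVCAR-3 and 11.3 for SKOV-3. The peak at C6orf226, from 42858085 to 42860240, is the second of the whole list, with a fold enrichment of 18.0 in COLO-205, 10.3 in OVCAR-3, 6.14 in SKOV-3 and 3.94 in DU-145. Those at MDFI, TRERF1 and NFYA have ranks 5, 6 and 7 in the list. The 5 strongest unshared peaks away from starts have fold enrichments from 19.2 to 25.7 and pileups from 80 to 167 tags. Of these, 3 lie in TRERF1, 1 in BICRAL and 1 in the long non-coding RNA gene FOXP4-AS1. The widest peak, of 4997 bp, runs from 42089038 to 42094034 in an intron of C6orf132, with a fold enrichment of 20.0, and overlaps OVCAR-3 and SKOV-3 peaks with 5.72 and 4.72.

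Dense windows on other chromosomes had lower fold enrichments in COLO-205. The densest 2-Mb windows of the 4 chromosomes that lead the list apart from chromosome 6 held 1002 peaks on chromosome 13, 812 on chromosome 9, 705 on chromosome 5 and 627 on chromosome 1. They were picked after the counts were seen, from a grid that starts at even Mb, while the window on chromosome 6 was placed off this grid by its density. On the same grid the densest window is that on chromosome 13, and the densest of chromosome 6, from 40000001 to 42000000, is the second with 939 peaks and a median fold enrichment of 9.39. Their median fold enrichments were 5.41, 4.13, 4.14 and 4.19, against 9.67 in the window on chromosome 6. Their median local backgrounds were 4.87, 5.45, 5.73 and 4.48 tags, against 3.43. The share of peaks within 1 kb of a coding start was 4.39% on chromosome 13, 13.2% on chromosome 9, 7.09% on chromosome 5 and 8.77% on chromosome 1, against 5.32%. The share overlapping a peak of another line was 1.30%, 14.8%, 18.7% and 25.8% in the same order, against 11.3%.

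The sequence under the summits was searched for 12 short motifs on both strands in the 300 bases around each summit. In the window, TGANTCA of AP-1 was found at 5.50% of the COLO-205 summits and in 4.57% of all COLO-205 summits, and in 7.86% of 300-base tiles laid over the whole window. GGGCGG of the Sp and KLF factors, which is common at promoters, was found at 15.4% against 28.4% of all summits and 7.94% of tiles. CGGAAG of the ETS factors was found at 4.62% against 8.75% of all summits and 3.83% of tiles, and CACGTG of the E-box at 3.75% against 6.02% and 3.03%. AGATAA of the GATA factors was found at 6.37% of summits in the window, 4.48% of all summits and 15.0% of tiles. For CCAAT of NF-Y, which is also part of CCAATAAA, these shares were 20.1%, 18.0% and 32.4%, for CATTCC of TEAD 10.2%, 11.3% and 15.4% and for CTTTGAT of TCF 1.92%, 1.35% and 3.41%. The letters of AP-1, GATA, NF-Y, TEAD and TCF were thus less frequent at the summits than in the tiles of the window. The longer motifs were rare, with CCAATAAA of the posterior HOX factors at 4 summits, CAAAGTCCA of HNF4 at 2 and the HNF1 motif at 0 of 1146 (exact Clopper-Pearson 95% interval 0% to 0.321%). Their shares among all summits were 0.307%, 0.278% and 0.00584%, and among tiles 1.02%, 0.345% and 0%.

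The largest share was that of TAATCC, the letters of the PITX and other bicoid-class factors. They were found at 496 summits of the window, or 43.3%, against 33.2% in the flanks, 25% of all COLO-205 summits and 27.7% of the tiles. These letters also lie inside CTGTAATCCC, a run of the Alu repeats that are spread over primate genomes and are frequent in gene-rich DNA. This run is the most frequent one of 10 letters with TAATCC at that place among the summits of the window, and it was searched after the share of TAATCC was seen. It was found at 372 summits of the window, or 32.5% (exact Clopper-Pearson 95% interval 29.8% to 35.3%), against 24.2% in the flanks, 18.7% of all COLO-205 summits and 14.9% of the tiles. Of the 496 summits with TAATCC, 75% held the longer run, as did 74.7% of all COLO-205 summits with TAATCC. Without it, TAATCC was at 10.8% of the summits of the window and 6.31% of all summits. Peaks with the run had a median fold enrichment of 9.46 and a median pileup of 37 tags, and those without it 9.81 and 48 tags. Over the whole list the median fold enrichment was 5.30 with the run and 4.55 without it. The median GC content of the 300 bases was 53.0% in the window and 58.3% over all COLO-205 peaks, and that of the whole window was 46.3%.

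**Figure D5:**
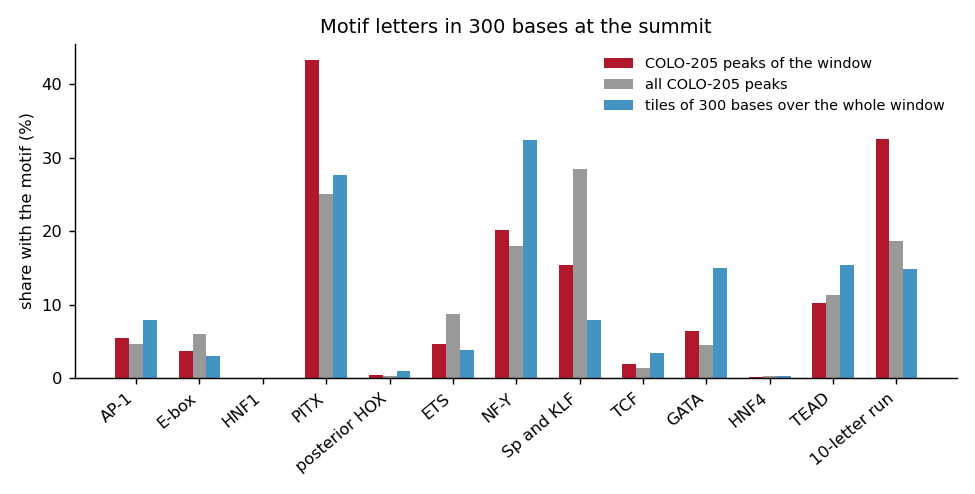
Share in percent (vertical axis) of 300-base stretches that hold each motif or the 10-letter run, for the COLO-205 summits of the window, all COLO-205 summits and tiles over the whole window. The PITX letters and the run are at 43.3% and 32.5% of the summits of the window, above both other sets.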

How the data were processed

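H3K27ac ChIP-seq peak lists of 4 cell lines, with 1 library each, were analysed. Reads had been mapped by the authors to hg19 (Bowtie2 2.1.0), and narrow peaks called in each library with MACS2 2.1.0.20150603 and a q-value threshold of 0.001. The deposited lists give each peak a −log10 q with a score made from it, a −log10 p, a summit, and the fold enrichment at the summit relative to background in that library. The authors' values are not scaled between libraries. For comparisons between lines, the pileup was divided by the computed tags of its library. Merging of peaks under 350 bp apart is described in the methods, but closer neighbours remain in the deposited lists, so merging was tried as an alternative.

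Members were the COLO-205 peaks of chromosome 6 with a summit in the window. The members and gene lists were chosen with earlier results of these data known. For each peak, the whole number of tags that gives its deposited p from its fold enrichment was taken as pileup (tolerance 0.001 in −log10 p), and this was found for 100% of peaks. The self-test recovered 100% of 14000 pileups per line. Library tags follow from the minimum of the background, the fragment length (the smallest peak width) and 2700000000 genome positions. Peaks were compared between lines by overlap of at least 1 bp. No p-values were computed, since there is 1 library per line. Shares have exact Clopper-Pearson 95% intervals, which cover counting error only.

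Gene starts are those of protein-coding transcripts in GENCODE lifted to GRCh37, and sequences come from the GRCh37 assembly, the build of the lists. All peaks lie within its chromosome lengths. Peaks were named by −log10 q, with the 5 highest in the window and the 5 highest among those unshared and over 1 kb from a start, and by width. Genes were named from lists by role, of which CUL7, PTK7, MRPL2, ADCY10P1 and LRFN2 have no coding start in the window, and GLTSCR1L is an older name of BICRAL. The marker genes of the tissues, the dense stretch, the comparison windows and the 10-letter run were chosen after the data were seen. The scripts ran in Python 3.11.15 with pandas 2.3.3, numpy 2.4.6, scipy 1.17.1 and matplotlib 3.10.9. DNA copy number, expression and mutations were not analysed here. Some marker genes and sequences are not reported here.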

Additional observations from a re-analysis of the deposited data

How the results depend on the processing

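No paired analysis was possible because each line has a single library. Using the left or the right flank alone was chosen after seeing the data. Of 79 values recomputed under the alternatives, 42 stayed within 1.5 times (counts of peaks and the ratio of bases under peaks) or within the 95% interval of the value (the other values), 35 moved by more and 2 changed direction. Where peaks were left out or joined, the setting itself changes the number of peaks. Otherwise the cause was not tested.

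The count of 1146 COLO-205 peaks stayed within 1.5 times, between 776 with merging and 1146. Among peaks with −log10 q from 10 upwards, DU-145 had 60 in the window, OVCAR-3 had 35 and SKOV-3 had 14. With all lists cut to the 14001 strongest peaks (equal numbers), DU-145 had 31 and OVCAR-3 had 17. The ratio of peaks per Mb between window and flanks was 3.96 with merging, 5.17 with equal numbers, 2.88 with the nearest 2 Mb on each side, 2.36 with the left flank and 151 with the right. For bases under peaks, 6.36 became 3.83, 3.22 and 249 with these flanks. The share overlapping another line was 5.05% from a −log10 q of 10, 14.4% with merging, 4.00% with equal numbers and 6.20% with an overlap of at least 50%. The share near a start was 20.9% within 5 kb. The ratio of median fold enrichment, 1.11, was 1.16 with merging, 1.06 with equal numbers and 2.38 with the right flank. That of the local background, 1.1, was 1.1 with merging and reversed to 0.444 with the right flank, which holds 19 peaks.

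The difference in relative pileup between window and flanks changed as follows. Against DU-145, 0.26 became 0.48 from a −log10 q of 5 and 1.20 from 10, 0.85 with equal numbers, 0.69 with an overlap of at least 50%, 0.14 with the nearest 2 Mb and 2.18 with the right flank, and reversed to -0.13 with the left flank. Against OVCAR-3, 1.32 became 1.59 with equal numbers, 1.56 with an overlap of at least 50%, 0.78 with the nearest 2 Mb, 0.44 with the left flank and 2.47 with the right. Against SKOV-3, 1.82 became 1.38 with equal numbers and 1.93 with an overlap of at least 50%. With 1 library a line, differences between lines describe these libraries only.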
